A study of Rattus norvegicus with 8 samples.

Results

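Matrix proteases and their inhibitors were read from the probes of a rat gene expression array whose gene name began with Mmp and a number or with Adamts, or was Timp1, Timp2, Timp3 or Timp4. Control probes were left out. The rule took 54 of 30367 probes, which belong to 46 of 26214 genes: 22 matrix metalloproteinase (Mmp) genes, 15 Adamts protease genes, 5 Adamts-like (Adamtsl) genes and 4 tissue inhibitor of metalloproteinases (Timp) genes. RNA came from the hippocampus of male Sprague Dawley rats, an outbred laboratory strain. Animals breathed normal air (normoxia) or were exposed to hypobaric hypoxia, the low pressure of an altitude of 25000 ft with an effective oxygen level of 8%, in a chamber. There were 8 single-colour arrays, 2 for each of 4 groups: normoxia, 1 day of hypoxia (day 1), 3 days (day 3) and a group titled day 7 whose exposure field gives 5 days, called day 7 here. All groups share strain, sex and tissue, and the labels used here give no age. Whether the 2 arrays of a group came from different rats is not given, so a p-value here reflects array-to-array spread that may be technical.

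Matrix metalloproteinases are zinc enzymes, secreted or bound to the cell membrane, that cut collagens, laminins, growth factors and other proteins outside the cell. ADAMTS proteases are related secreted enzymes with thrombospondin repeats, and several of them cut the large proteoglycans that fill the space between brain cells. TIMPs bind the active site of these enzymes and block it. In brain, the balance of these families is known for its part in vessel growth, in the tightness of the blood-brain barrier and in the turnover of the matrix around synapses.

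The level of a probe is the log2 of its processed signal after subtracting the 75th percentile of its array, so 0 is the signal of the probe at that percentile. A gene was tested when both arrays of some group showed one of its probes well above background, which held for 34 of the 46 member genes and for 21296 genes in all. Changes are differences of group means of log2 level ± SE from limma with 2 arrays per group, adjusted by the Benjamini-Hochberg method over all 21296 genes, and called at an adjusted p under 0.05. The 3 comparisons with normoxia share its 2 arrays. All 14 listed hippocampal neuron markers passed the filter, and between 0 and 2 of them were not well above background on an array.

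The signal of markers of neighbouring tissues and of cell types differed between groups. The summed signal of 12 choroid plexus markers, in units of the array's 75th percentile, was 121 and 132 on the normoxia arrays, 1.92 and 1.98 on those of day 1, 163 and 174 on those of day 3 and 10 and 10.8 on those of day 7. For 11 leptomeningeal and fibroblast markers the sums were 19.5 and 19.6 in normoxia, then 7.82 and 7.87 (day 1), 12.6 and 12.8 (day 3) and 6.16 and 6.22 (day 7). For 11 striatal markers they were 7.08 and 7.16, then 45.2 and 45.7 on day 1, and between 5.29 and 6.03 on the later days. The sum of 11 endothelial markers was lowest in normoxia (9.38 and 10.1), highest on day 1 (27.7 and 28.4), and between those on day 3 (23.5 and 24.3) and day 7 (18.1 and 18.4). Of these 11 genes 6 were called higher on each day, Kdr, Pecam1, Flt1, Esam and Cldn5 on all 3, and 0, 2 and 3 were called lower: Tie1 on day 3 (-1.25) and day 7 (-1.82), Tek on the same days (-0.95 and -2.07) and Emcn on day 7 (-0.43). Their mean log2 level was -1.86 and -1.84 in normoxia, -0.98 and -1.01 at day 1, -1.42 and -1.41 at day 3, and -1.69 and -1.84 at day 7. The arrays also differed in brightness: the 75th percentile signal was 2321 to 2684 in normoxia and 1393 to 1407 on day 7, normoxia and day 1 lay in slide row 1 and the other groups in row 2, and slide position and group cannot be told apart.

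**Figure D1:**
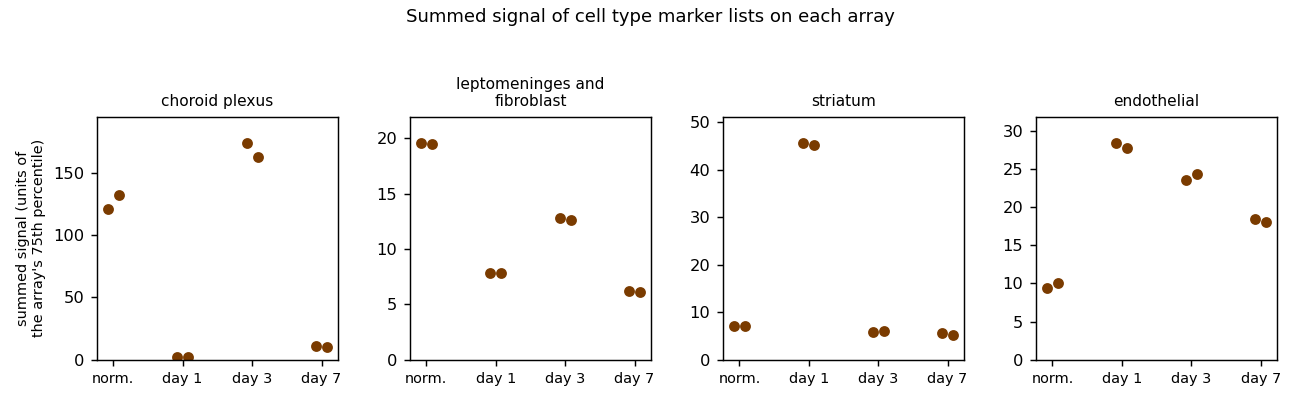
Summed signal of 4 marker lists on each of the 8 arrays (one point per array; vertical axis in units of the array's 75th percentile, starting at 0; horizontal axis, group). Choroid plexus markers were at 1.92 and 1.98 on day 1 against 121 and 132 in normoxia, and the endothelial sum was lowest in normoxia.

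Of the 34 member genes tested, 13 (38.2%) were called on day 1 against normoxia, 5 higher and 8 lower, beside 35.5% of all genes tested (15.3% higher, 20.2% lower). On day 3 the count was 19 (55.9%), 7 higher and 12 lower, beside 50.3% of all genes (24.2% higher, 26.2% lower). On day 7 it was 22 (64.7%), 7 higher and 15 lower, beside 61.3% of all genes (31.5% higher, 29.7% lower). The members were thus called about as often as genes in general. The lower calls include those of Adamts12, Adamtsl3 and Adamtsl4. These genes passed the filter through normoxia alone, which favours a fall in the hypoxia groups. The median change of the 34 members was -0.16, -0.20 and -0.26 at day 1, 3 and 7, against -0.07, -0.05 and -0.03 over all genes. These medians were not matched for brightness, which changes also followed, as given below. Mmp1a and Mmp11, which were not called, also passed the filter through normoxia alone and enter the member medians. Only Adamts1 and Adamts9 rose by 2-fold or more in any comparison with normoxia.

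The day 1 count fell to 8 (5 higher, 3 lower) without day 1 array 1 and to 8 (5 higher, 3 lower) without normoxia array 2. The split between higher and lower calls depended on the scaling. Median centring gave 10 higher and 6 lower on day 3 and 9 and 11 on day 7. Normexp background correction gave 6 higher and 4 lower at day 1, 16 and 7 at day 3 and 19 and 7 at day 7, and quantile normalization gave 6 and 5 on day 1. Median centring also moved the median change of all genes from -0.03 to 0.26 on day 7 and from -0.05 to 0.10 on day 3, and normexp moved it to 0.22 and 0.13. Changes also followed brightness: the dimmest decile of all genes had a median change of -0.40 on day 1, -0.63 on day 3 and -0.65 on day 7, while the brightest decile had -0.01, 0.18 and 0.36. Member probes well above background numbered 42 and 41 of 54 on the normoxia arrays, 34 and 39 at day 1, 32 and 34 at day 3, and 34 and 30 at day 7.

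**Figure D2:**
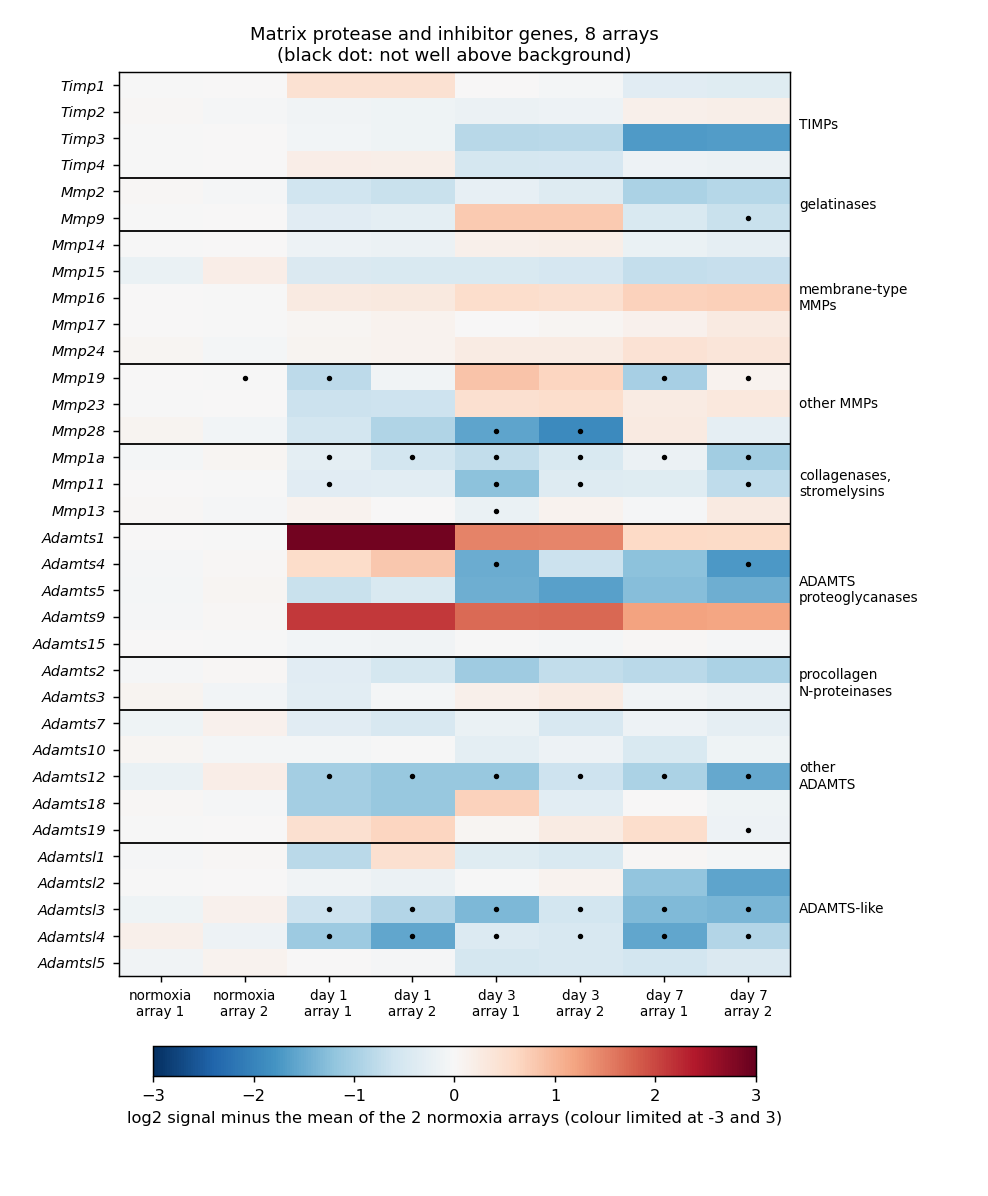
Log2 level of the 34 tested member genes (rows, grouped by class) on each of the 8 arrays (columns), minus the mean of the 2 normoxia arrays; colour stops at -3 and 3, and a black dot marks a probe not well above background on that array. Adamts1 and Adamts9 are the darkest red rows on day 1, and Timp3 turns blue on day 3 and day 7.

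Among the ADAMTS proteoglycanases, enzymes that cut aggrecan, versican and brevican, Adamts1 and Adamts9 rose in all 3 hypoxia groups, Adamts5 fell in all 3, Adamts4 fell on day 3 and day 7, and Adamts15 was called in none. Adamts1, also known for its antiangiogenic activity, had a level of -0.01 and -0.04 in normoxia, 2.88 on both day 1 arrays, 1.46 and 1.43 at day 3, and 0.58 and 0.56 at day 7. All 6 hypoxia arrays lay above both normoxia arrays, and the level came down at each step after day 1. The rise was 7.49-fold on day 1 (2.90 ± 0.03, limma adjusted p = 4.55e-06), 2.76-fold on day 3 (1.46 ± 0.03, adjusted p = 4.05e-05) and 1.51-fold on day 7 (0.59 ± 0.03, adjusted p = 0.000115). Its probe (rn4, chr11:25434383-25434442) was spotted 10 times, and the SD over the spots of an array was 0.028 to 0.073. Under the alternatives run, the log2 rise ranged from 2.87 to 3.00 on day 1, from 1.39 to 1.61 on day 3 and from 0.55 to 0.89 on day 7.

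Adamts9, a protease that is also retained at the cell surface and in the secretory pathway, had a level of -1.85 and -1.77 on the normoxia arrays, 0.30 and 0.32 on those of day 1, -0.10 and -0.09 on those of day 3 and -0.60 and -0.62 on those of day 7. The groups did not overlap, and the order of the groups was the same as for Adamts1. The rise was 4.34-fold on day 1 (2.12 ± 0.04, limma adjusted p = 2.02e-05), 3.27-fold on day 3 (1.71 ± 0.04, adjusted p = 4.05e-05) and 2.30-fold on day 7 (1.20 ± 0.04, adjusted p = 4.02e-05), with the probe at rn4 chr4:126996632-126996691. From day 1 to day 3 Adamts1 fell by 1.44 and Adamts9 fell by 0.41 on the log2 scale, and from day 3 to day 7 they fell by 0.87 and by 0.51 (limma adjusted p = 0.00102 at most). The endothelial marker sum had the same order of groups, while Tie1 and Tek of that list fell on day 3 and day 7, and the part of endothelial content in these rises was not tested. The striatal marker sum was high on day 1 alone, and its part in the day 1 rises was not tested. In bulk tissue, more cells of a type and more RNA per cell cannot be told apart.

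The promoters of the 2 genes that rose most are shown because hypoxia-inducible factors bind the core letters GCGTG or ACGTG, and that of Timp3, the inhibitor with the deepest fall on day 7, is shown beside them. Each is the 250 bases before the RefSeq start on assembly GRCr8, read 5′ to 3′ on the gene's strand, with GCGTG on either strand in capitals; ACGTG and the AP-1 letters TGAGTCA were also searched on both strands and not found in these 3 windows. The regions are chr11:38427385-38427634 (minus strand), chr4:127019877-127020126 (minus strand) and chr7:19459559-19459808 (minus strand).
Adamts1: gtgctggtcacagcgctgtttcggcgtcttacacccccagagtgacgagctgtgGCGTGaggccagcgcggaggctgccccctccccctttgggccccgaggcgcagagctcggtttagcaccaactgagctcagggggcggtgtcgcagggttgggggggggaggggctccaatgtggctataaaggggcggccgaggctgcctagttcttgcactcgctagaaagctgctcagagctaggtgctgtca
Adamts9: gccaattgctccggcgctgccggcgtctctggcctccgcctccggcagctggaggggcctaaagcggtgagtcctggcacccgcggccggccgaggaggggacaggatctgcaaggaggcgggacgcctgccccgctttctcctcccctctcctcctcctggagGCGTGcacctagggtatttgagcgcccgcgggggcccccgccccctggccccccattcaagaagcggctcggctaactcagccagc
Timp3: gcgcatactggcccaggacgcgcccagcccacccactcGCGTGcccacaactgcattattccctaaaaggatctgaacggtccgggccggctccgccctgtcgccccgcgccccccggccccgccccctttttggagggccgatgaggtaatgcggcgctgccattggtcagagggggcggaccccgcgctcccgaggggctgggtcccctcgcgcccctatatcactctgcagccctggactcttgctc
Counted from the start, the match begins at base -196 in Adamts1 and at base -86 in Adamts9. GCGTG was found in 25.9% of 33469 rat promoter windows of the same length and in 11 of the 36 member genes with an entry. ACGTG was found in 16.6% of all windows and in 8 members, and TGAGTCA in 4.05% and in 6 members. Genes that rose and a gene that fell thus both hold the letters, and a match describes these windows alone.

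Adamts5, a major aggrecan-cutting enzyme, lies beside Adamts1: its probe (rn4, chr11:25503663-25503722) is 69 kb from the Adamts1 probe. Its level was -4.47 and -4.36 in normoxia, then -5.09 and -4.88 (day 1), -5.89 and -6.05 (day 3) and -5.69 and -5.88 (day 7). All hypoxia arrays lay below both normoxia arrays, opposite to Adamts1. The fall was 1.48-fold on day 1 (-0.56 ± 0.11, limma adjusted p = 0.0144), 2.93-fold on day 3 (-1.55 ± 0.11, adjusted p = 0.00042) and 2.58-fold on day 7 (-1.37 ± 0.11, adjusted p = 0.000294). The call on day 1 was lost without day 1 array 1 (-0.46) and without normoxia array 2 (-0.51), and normexp ended the call on day 7 (-0.18). The day 3 call was kept under the alternatives run, but its log2 change ranged from -1.63 to -0.39. The gene belongs to the next to dimmest decile of genes, whose median change was -0.22, -0.31 and -0.33 on the 3 days.

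Adamts4, the other main aggrecanase, had a level of -5.17 and -5.09 in normoxia, -4.57 and -4.32 at day 1, -6.62 and -5.78 at day 3, and -6.37 and -6.86 at day 7. The day 1 arrays were the highest and the later ones the lowest, and 1 of 2 arrays on day 3 and on day 7 was not well above background. The change was 0.69 ± 0.31 on day 1 (limma adjusted p = 0.154), -1.07 ± 0.31 on day 3 (adjusted p = 0.038) and -1.48 ± 0.31 on day 7 (adjusted p = 0.00998), and from day 1 to day 3 it fell by 1.75. The day 3 call was lost without day 3 array 1 (-0.64), normoxia array 1 (-1.11) or normoxia array 2 (-1.03), and under median centring (-0.92), quantile normalization (-0.76), the authors' values (-0.86) and normexp (0.00). The day 7 call was lost without normoxia array 2 (-1.44) and under normexp (0.01). Adamts15 stayed between 0.21 and 0.33 on all 8 arrays, with changes of -0.09, -0.03 and 0.00 from normoxia.

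Both tested procollagen N-proteinases, which trim the ends of fibrillar collagens, had modest signals. Adamts2 fell on day 3 (-0.91 ± 0.13, limma adjusted p = 0.00359) and day 7 (-0.88 ± 0.13, adjusted p = 0.00277), and its change on day 1 was -0.44 (adjusted p = 0.0542). Its levels were -3.23 and -3.14 on the normoxia arrays, -3.52 and -3.72 on those of day 1, -4.26 and -3.93 on those of day 3 and -3.99 and -4.13 on those of day 7, with no overlap between normoxia and hypoxia. Adamts3 was not called against normoxia (-0.18, 0.21 and -0.14). The fibrillar collagen genes Col1a2 (-1.47, -1.30 and -1.79 on the 3 days) and Col3a1 (-1.13, -1.08 and -1.76) fell, and so did Pcolce, which enhances procollagen processing (-1.22, -1.09 and -1.46). Leptomeningeal and fibroblast markers, a list that also holds both collagens, fell in 9, 11 and 11 of 11 cases on the 3 days with medians of -1.17, -1.08 and -1.76, and their part in the Adamts2 result was not tested.

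Of 5 other ADAMTS proteases tested, Adamts7, Adamts10 and Adamts19 were called in no comparison. Adamts12, a protease known from cartilage and vessels, was well above background only in normoxia (-6.73 and -6.31), so only a bound can be given: at least 2.11-fold lower on day 1, 1.62-fold on day 3 and 1.62-fold on day 7. For such bounds the dim group was given, array by array, its own signal or the weakest signal flagged as well above background, whichever was higher. On day 1 its own signal was the higher on both arrays, so that bound equals the fitted fold and carries the same array error. The Adamts12 bounds hold as scaled here and are not floors across the alternatives run. The fitted changes were -1.08, -0.88 and -1.24 (limma adjusted p = 0.0355, 0.0486 and 0.0127), and normexp turned those of day 3 and day 7 to 0.29 and 0.40. On day 1 the call was lost under normexp (-0.11, limma adjusted p = 0.376) and quantile normalization (-0.74, adjusted p = 0.294), and quantile normalization ended it on day 3 (-0.37) and day 7 (-1.18). The Adamts12 call was lost on day 1 without any 1 of its 4 arrays (-0.87 to -1.28, adjusted p = 0.066 to 0.151). On day 3 it was lost without day 3 array 1 (-0.62) or either normoxia array (-1.09 and -0.67), and on day 7 without day 7 array 2 (-0.94) or normoxia array 2 (-1.03). Adamts12 passed the filter through normoxia alone, which favours a fall in the hypoxia groups. Adamts18 had a level of -3.83 and -3.89 in normoxia and -4.88 and -5.00 on day 1, a fall of 1.08 ± 0.32 on the log2 scale (limma adjusted p = 0.0494) that was lost without any 1 of those 4 arrays (-1.02 to -1.14, adjusted p = 0.141 to 0.174). From day 1 to day 3 it rose by 1.27 ± 0.32 (limma adjusted p = 0.0221), and leaving out 1 array gave 0.77 to 1.76. The 2 day 3 arrays of Adamts18 were apart, at -3.18 and -4.17.

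The ADAMTS-like genes code for matrix proteins that resemble ADAMTS proteases and lack the protease domain. None of the 5 tested was called higher against normoxia, and 1, 2 and 4 were called lower on day 1, day 3 and day 7, beside 20.2%, 26.2% and 29.7% of all genes. Adamtsl3 and Adamtsl4 belong to the dimmest decile, where changes ran lower in general. Both passed the filter through normoxia alone. That selection favours lower values in the hypoxia groups, and their adjusted p takes no account of it. Adamtsl2, which binds fibrillin and proteins that store TGF-beta, had a level of -3.63 and -3.60 in normoxia, then -3.71 and -3.80 (day 1), -3.63 and -3.52 (day 3) and -4.79 and -5.19 (day 7). The day 7 arrays stood below all others, 2.59-fold below normoxia (-1.37 ± 0.14, limma adjusted p = 0.000616) and 2.67-fold below day 3 (-1.41 ± 0.14, adjusted p = 0.00164). Changes on day 1 (-0.14) and day 3 (0.04) were not called. Under the alternatives run, the day 7 change ranged from -1.58 to -0.5 against normoxia and from -1.62 to -0.66 against day 3.

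Adamtsl5 was lower on day 3 (-0.51 ± 0.08, limma adjusted p = 0.00513) and day 7 (-0.49 ± 0.08, adjusted p = 0.00401); normexp ended both calls (-0.06 and -0.03), and median centring (-0.20) and quantile normalization (-0.17) ended that of day 7. Adamtsl3 and Adamtsl4 were well above background only in normoxia. Adamtsl3 was at least 1.43-fold lower on day 3 (adjusted p = 0.0336) and at least 1.38-fold lower on day 7 (adjusted p = 0.00812), and the day 3 call was lost without either normoxia array (-1.07 and -0.83). As scaled here, Adamtsl4 was at least 2.02-fold lower on day 1 (limma adjusted p = 0.018) and at least 1.18-fold lower on day 7 (adjusted p = 0.0122). The bounds of both genes are not floors across the alternatives run, and the filter passed through normoxia alone favours these falls. The Adamtsl4 call on day 1 was lost without day 1 array 2 (-1.09), normoxia array 1 (-1.17) or normoxia array 2 (-1.48), and that on day 7 without normoxia array 1 (-1.08). Normexp (-0.10, adjusted p = 0.464) and quantile normalization (-0.76, adjusted p = 0.093) also ended the limma call of Adamtsl4 on day 1. Under normexp both genes had values above 0 on day 3 (0.38 and 0.44) and day 7 (0.41 and 0.44). Adamtsl1 was not called, and its day 1 arrays stood at -3.55 and -2.24.

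**Figure D3:**
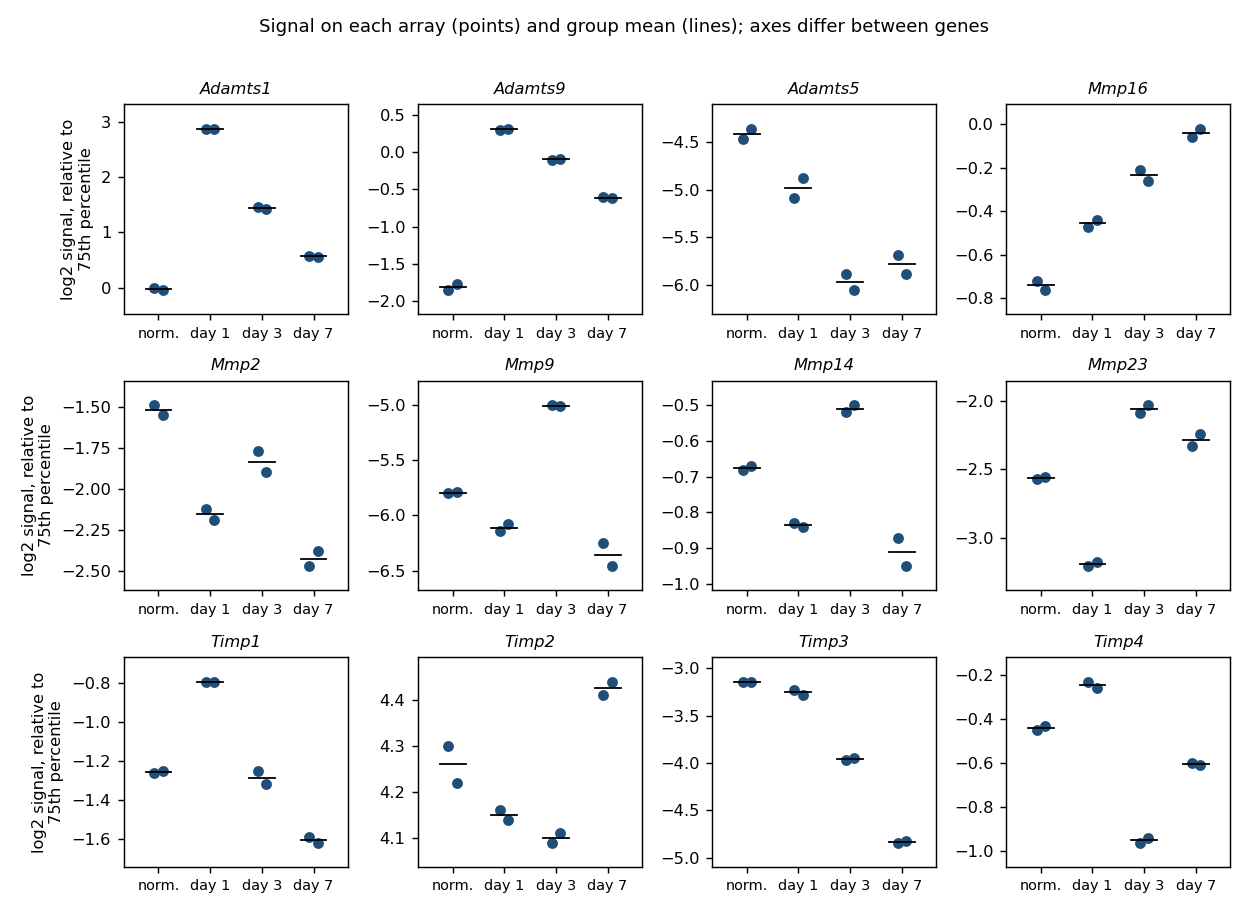
Log2 level relative to the array's 75th percentile for 12 member genes, with one point per array, a line at each group mean, and a vertical axis of its own for each gene. Adamts1 and Adamts9 peak on day 1 and come down, Mmp16 goes up at each step, Mmp9 is highest on day 3, and Timp3 goes down to -4.84 and -4.82 on day 7.

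Both gelatinases, which cut denatured collagen and the collagen of basement membranes, were lower than normoxia on day 1 and day 7. Mmp2 had a level of -1.49 and -1.55 in normoxia, -2.12 and -2.19 at day 1, -1.77 and -1.90 at day 3, and -2.47 and -2.38 at day 7. All hypoxia arrays lay below both normoxia arrays, with day 3 nearest to them. The change was -0.63 ± 0.07 on day 1 (limma adjusted p = 0.00214), -0.32 ± 0.07 on day 3 (adjusted p = 0.0122) and -0.90 ± 0.07 on day 7 (adjusted p = 0.000219). The leptomeningeal and fibroblast marker sum had the same order of groups as Mmp2, and its part in this result was not tested. The day 3 call was lost without day 3 array 2 (-0.25) or normoxia array 1 (-0.28) and under median centring (-0.17). A second, dimmer Mmp2 probe differed by -0.64, -1.0 and -1.96 on the 3 days, so the probes agree in direction against normoxia and not on the step from day 1 to day 3, which was 0.32 (adjusted p = 0.0115) on one and -0.36 on the other.

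Mmp9, an inducible gelatinase that is stored in neutrophils and also made by neurons and endothelium, was dim. Its level was -5.80 and -5.79 on the normoxia arrays, -6.14 and -6.08 on those of day 1, -5.00 and -5.01 on those of day 3 and -6.25 and -6.46 on those of day 7, where 1 array was not well above background. The day 3 arrays were above all others and the day 7 arrays below all others. The change was -0.32 ± 0.07 on day 1 (limma adjusted p = 0.0257), 0.79 ± 0.07 on day 3, a 1.73-fold rise (adjusted p = 0.000921), and -0.56 ± 0.07 on day 7 (adjusted p = 0.00171). It rose by 1.11 from day 1 to day 3 (limma adjusted p = 0.000342) and fell by 1.35 from day 3 to day 7 (adjusted p = 0.000508). The SD over the 10 spots of an array reached 0.59. In the authors' deposited values the changes from normoxia were -0.43, 0.64 and 0.22 with no call, and the step from day 3 to day 7 was -0.42 (limma adjusted p = 0.346). Normexp (-0.02) and quantile normalization (-0.12) ended the day 1 call, normexp turned that of day 7 to 0.38, and the day 1 call was lost without any 1 of its 4 arrays (-0.29 to -0.34, adjusted p = 0.0839 to 0.119). Neutrophil markers, of which 7 of 11 were tested, had summed signals of 0.532 and 0.536 in normoxia, then 0.861 and 0.914 (day 1), 0.51 and 0.52 (day 3) and 0.618 and 0.639 (day 7). Their genes did not move together: S100a8 and S100a9 rose on day 1 (1.35 and 1.72), and on day 3 Lcn2 rose (0.98 ± 0.25, limma adjusted p = 0.0247) while Ngp (-1.40) and Camp (-0.14) fell. On the day 3 arrays Ngp was at -8.32 and -8.4. The weakest levels flagged as well above background there were -7.295 and -7.336, so the size of the Ngp fall is uncertain. Lcn2, which also changed by 1.70 from day 1 to day 3 and by -1.44 from day 3 to day 7, had its highest group on day 3, as Mmp9 did, and the part of neutrophil RNA in the Mmp9 result was not tested.

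Membrane-type MMPs sit on the cell surface and cut matrix and other proteins at the cell border. Of the 5 tested, 2, 4 and 5 were called on the 3 days, beside 35.5%, 50.3% and 61.3% of all genes, and changes ran from -0.69 to 0.70. Mmp16, a membrane-type enzyme found mainly in brain, had a level of -0.72 and -0.76 in normoxia, -0.47 and -0.44 at day 1, -0.21 and -0.26 at day 3, and -0.06 and -0.02 at day 7. The groups did not overlap and each was above the one before. The change was 0.28 ± 0.04 on day 1 (limma adjusted p = 0.00508), 0.51 ± 0.04 on day 3 (adjusted p = 0.00054) and 0.70 ± 0.04 on day 7, a 1.63-fold rise (adjusted p = 0.00011). The last step, 0.20 from day 3 to day 7 (adjusted p = 0.0137), lost its call without day 3 array 2 (0.17) or day 7 array 2 (0.17); the 3 changes from normoxia, all under 2-fold, kept theirs under every alternative run other than the 2-fold threshold.

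Mmp14, which activates the Mmp2 proenzyme together with Timp2, changed less. Its level was -0.68 and -0.67 on the normoxia arrays, -0.83 and -0.84 on those of day 1, -0.52 and -0.50 on those of day 3 and -0.87 and -0.95 on those of day 7. The day 3 arrays were above normoxia and those of the other days below it, the same order as for Mmp9. The change was -0.16 ± 0.04 on day 1 (limma adjusted p = 0.0331), 0.16 ± 0.04 on day 3 (adjusted p = 0.0208) and -0.23 ± 0.04 on day 7 (adjusted p = 0.00465). The steps of 0.32 from day 1 to day 3 (limma adjusted p = 0.00211) and -0.40 from day 3 to day 7 (adjusted p = 0.00184) kept their calls under every alternative run other than a 2-fold threshold. The day 1 call was lost without any 1 of its 4 arrays (-0.15 to -0.16, adjusted p = 0.102 to 0.138), as was the day 3 call (0.16 to 0.17, adjusted p = 0.0665 to 0.0868), and median centring turned the day 7 value to 0.06. The choroid plexus marker sum was also highest on day 3 and low on day 1 and day 7, and its part in the Mmp9 and Mmp14 results was not tested.

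Mmp24, a membrane-type enzyme of neurons, rose on day 3 (0.25 ± 0.05, limma adjusted p = 0.0131) and day 7 (0.40 ± 0.05, adjusted p = 0.00184), from 2.43 and 2.30 in normoxia to 2.79 and 2.73 on day 7; genes of its brightness had medians of 0.10 and 0.26 on those days. The day 3 call was lost without either day 3 array (0.26 and 0.25) and under quantile normalization (0.15). Mmp15 fell on day 3 (-0.48 ± 0.13, limma adjusted p = 0.0305) and day 7 (-0.69 ± 0.13, adjusted p = 0.00689), from 4.61 and 5.02 in normoxia to 4.11 and 4.13 on day 7, while genes of its brightness had a median of 0.36 on day 7. Its other probe differed by -0.29, -0.60 and -0.52, and the day 3 call was lost without either day 3 array (-0.51 and -0.46) and under median centring (-0.34). Mmp17 was called on day 7 alone (0.19 ± 0.05, limma adjusted p = 0.026), while its other probe differed by -0.70 there and the mean of both probes by -0.25. The Mmp17 call was also lost under quantile normalization (0.02) and without day 7 array 2 (0.13), normoxia array 1 (0.21) or normoxia array 2 (0.18).

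Among other MMPs, Mmp23, which lacks the usual haemopexin domain, fell on day 1 and rose on day 3 and day 7. Its level was -2.57 and -2.56 in normoxia, then -3.21 and -3.18 (day 1), -2.09 and -2.03 (day 3) and -2.33 and -2.24 (day 7). The groups did not overlap. The change was -0.63 ± 0.05 (limma adjusted p = 0.000754), 0.51 ± 0.05 (adjusted p = 0.000808) and 0.28 ± 0.05 (adjusted p = 0.00381), and from day 1 to day 3 it rose by 1.14, or 2.20-fold (adjusted p = 0.000108). Mmp28, known as epilysin, had a level of -4.28 and -4.44 in normoxia, -4.90 and -5.26 at day 1, -5.94 and -6.27 at day 3, and -4.09 and -4.64 at day 7. Neither day 3 array showed it well above background. As scaled here, that makes it at least 3.34-fold lower on day 3 than in normoxia (-1.74 ± 0.24, limma adjusted p = 0.00286). That bound again equals the fitted fold and carries its error. It is not a floor across the alternatives run, where the log2 change ranged from -1.9 to -0.46. The step from day 1 to day 3 was -1.03 ± 0.24 (limma adjusted p = 0.0167), and normexp ended its call (-0.16). On day 7 the change of Mmp28 from normoxia was 0.00 ± 0.24 (adjusted p = 0.988). That is at least 3.33-fold above day 3 by the same rule, with a log2 step of 0.86 to 2.01 under the alternatives. Its probe was spotted once, so no spread between spots exists. Mmp19 was not called; its day 3 arrays (-6.77 and -6.96) were the highest.

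The collagenases, stromelysins and matrilysins, which cut fibrillar collagen and a wide range of matrix proteins, gave little signal. Only 3 of 8 were tested, Mmp1a, Mmp11 and Mmp13, and none was called in any of the 5 comparisons. Mmp13 lay between -6.32 and -5.85 on all 8 arrays. The 12 members not tested were Adamts14, Adamts16, Adamts17, Mmp1b, Mmp3, Mmp7, Mmp8, Mmp10, Mmp12, Mmp20, Mmp21 and Mmp27, and 5 of them (Adamts14, Adamts16, Mmp1b, Mmp21 and Mmp27) were well above background on none of the 8 arrays. Mmp8, the neutrophil collagenase, had signals of 17.6 and 21.7 on the day 1 arrays against 3.44 to 7.39 on the other 6. It was well above background on only 1 of the day 1 arrays and on none of the others. Adamts17 was at 157 on day 7 array 2 and 64.1 on normoxia array 2, and between 3.61 and 5.50 on the other 6 arrays, so single arrays disagree.

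Position separated the untested genes. On rn4 chromosome 8 between 4168554 and 4533706, a stretch of 365 kb, lie the probes of 10 member genes: Mmp13, Mmp12, Mmp1b, Mmp3, Mmp1a, Mmp10, Mmp8, Mmp27, Mmp20 and Mmp7. Of these 10 genes 2 were tested and none was called in any comparison, and 8 were not tested. Of the 36 members elsewhere 32 were tested and 4 were not. These are counts of genes that share a region, and detection on this array depends on the probe as well as on the RNA.

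All 4 TIMP genes were well above background on all 8 arrays. On day 1, 2 were called higher and none lower; on day 3, none higher and 3 lower; on day 7, 1 higher and 3 lower. Of all genes tested, 15.3%, 24.2% and 31.5% were called higher and 20.2%, 26.2% and 29.7% lower on these days. Timp1, the inducible member of the family, had a level of -1.26 and -1.25 on the normoxia arrays, -0.79 on both day 1 arrays, -1.25 and -1.32 on those of day 3 and -1.59 and -1.62 on those of day 7. Day 1 lay above normoxia, day 3 overlapped it and day 7 lay below. The change was 0.47 ± 0.04 on day 1, a 1.38-fold rise (limma adjusted p = 0.00108), -0.03 on day 3 (adjusted p = 0.579) and -0.35 ± 0.04 on day 7 (adjusted p = 0.000898). Under median centring the day 7 change was -0.05 with no call.

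Timp3, which binds to the matrix and also blocks ADAMTS proteases and ADAM17, fell in steps. Its level was -3.15 and -3.14 in normoxia, then -3.23 and -3.28 (day 1), -3.97 and -3.95 (day 3) and -4.84 and -4.82 (day 7). The groups did not overlap and each was below the one before. The change was -0.11 ± 0.03 on day 1 (limma adjusted p = 0.0661), -0.81 ± 0.03 on day 3, a 1.75-fold fall (adjusted p = 0.000141), and -1.68 ± 0.03 on day 7, a 3.20-fold fall (adjusted p = 2.64e-05). The steps of -0.70 from day 1 to day 3 and -0.87 from day 3 to day 7 were also called (adjusted p = 0.000171 and 0.000328), and the calls on day 3 and day 7 held under every alternative run, except that the day 3 change is under the 2-fold threshold. Under the alternatives run, the log2 change ranged from -0.82 to -0.44 on day 3 and from -1.69 to -0.76 on day 7. The Timp3 probe lies at rn4 chr7:19679721-19679780. The choroid plexus sum was above normoxia on day 3 and below it on day 1 and day 7, the leptomeningeal sum was below normoxia on all 3 days, and the part of either in the Timp3 result was not tested.

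Timp2, the inhibitor that helps Mmp14 to activate Mmp2, moved little: its level was 4.30 and 4.22 in normoxia, 4.16 and 4.14 at day 1, 4.09 and 4.11 at day 3, and 4.41 and 4.44 at day 7. The change was -0.11 on day 1 (limma adjusted p = 0.0896), -0.16 ± 0.04 on day 3 (adjusted p = 0.0222) and 0.16 ± 0.04 on day 7 (adjusted p = 0.0184), where genes of its brightness had a median of 0.36. The day 3 call was lost without day 3 array 1 (-0.15), day 3 array 2 (-0.17) or normoxia array 1 (-0.12) and under median centring (-0.02) or normexp (-0.12), and the day 7 call without day 7 array 2 (0.15) or normoxia array 2 (0.12); quantile normalization turned the day 7 value to -0.12.

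Timp4, an inhibitor made in brain and heart, had a level of -0.45 and -0.43 on the normoxia arrays, -0.23 and -0.26 on those of day 1, -0.96 and -0.94 on those of day 3 and -0.60 and -0.61 on those of day 7. It was above normoxia on day 1, lowest on day 3, and rose by 0.34 ± 0.03 from day 3 to day 7 (limma adjusted p = 0.00154). The change was 0.19 ± 0.03 on day 1 (limma adjusted p = 0.00899), -0.51 ± 0.03 on day 3 (adjusted p = 0.000341) and -0.16 ± 0.03 on day 7 (adjusted p = 0.00815). A second probe differed by 0.11, -0.56 and -0.42. The day 1 call was lost without day 1 array 1 (0.18) and under normexp (0.17), normexp also ended the day 7 call (-0.16), and median centring turned the day 7 value to 0.13 (adjusted p = 0.0262).

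**Figure D4:**
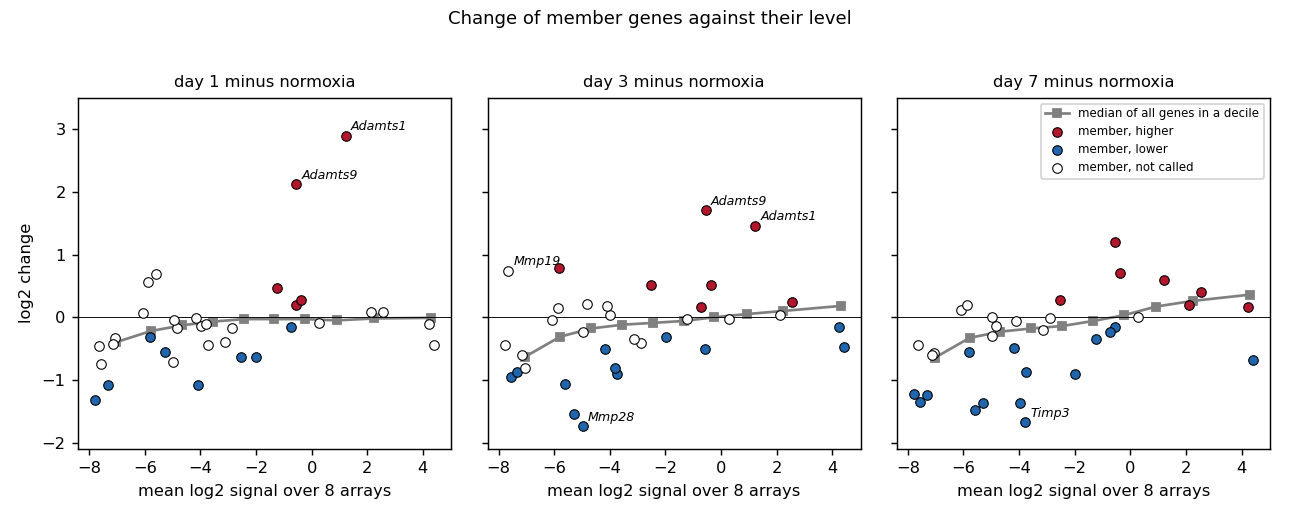
Log2 change of the 34 tested members (points; red called higher, blue called lower, white not called) against their mean log2 level over 8 arrays, for day 1, day 3 and day 7 minus normoxia; grey squares join the median change of all genes in each decile of level. Grey medians run from below 0 for dim genes to 0.36 for the brightest on day 7. Among the points far from them are Adamts1 and Adamts9 on day 1, Mmp28 on day 3 and Timp3 on day 7.

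Between consecutive groups, 18 of the 34 members (52.9%) were called from day 1 to day 3, 8 higher and 10 lower, beside 51.2% of all genes (28.2% higher, 23.0% lower), with a median of -0.08 against 0.03 for all genes. From day 3 to day 7 the count was 14 (41.2%), 4 higher and 10 lower, beside 42.4% of all genes (24.2% higher, 18.3% lower), with a median of -0.14 against 0.05. The split was 11 and 9 with median centring and 16 and 6 with normexp in the first step, and 8 and 8 with median centring in the second. In the first step 4 of 5 proteoglycanases and 3 of 4 TIMPs were called lower and both gelatinases higher. The second Mmp2 probe went the other way in that step (-0.36), and the mean of the Mmp2 probes gave -0.02. In the second step both gelatinases were called lower, while the authors' values gave -0.42 for Mmp9 with no call.

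The counts for related gene lists that follow stand beside 15.3%, 24.2% and 31.5% of all genes called higher and 20.2%, 26.2% and 29.7% called lower on the 3 days. The plasminogen system supplies plasmin, which activates several MMP proenzymes. Of its 11 tested genes 4, 5 and 5 rose and 0, 2 and 2 fell on the 3 days, with median changes of 0.26, 0.14 and 0.06. Plat, the tissue plasminogen activator gene, rose by 1.66 ± 0.03 on day 1 (limma adjusted p = 2.11e-05), 1.44 on day 3 and 1.36 on day 7. S100a10, which with annexin A2 gathers plasminogen at the cell surface, rose by 0.35, 0.52 and 0.73, and Anxa2 rose by 1.98, 0.98 and 0.37. Of 12 other regulators of these proteases, 4, 2 and 3 rose and 3, 4 and 6 fell, with medians of 0.04, -0.10 and -0.31. A2m, a broad protease trap, rose on all 3 days (0.52, 0.80 and 0.55), and Lrp1, an endocytic receptor that clears proteases with their inhibitors, fell on day 3 (-0.59) and day 7 (-1.12).

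Among 10 tested ADAM proteases, membrane-bound relatives that shed surface proteins, 4, 1 and 3 rose and 1, 3 and 2 fell, with medians of 0.24, -0.38 and -0.24. Adam17, the enzyme that sheds tumour necrosis factor and a target of Timp3, rose on day 1 (0.62 ± 0.08, limma adjusted p = 0.00461) and fell on day 3 (-0.42) and day 7 (-0.78). Adam15 did the same (0.97, -0.55 and -0.60). The striatal marker sum was high on day 1 alone, and its part in the day 1 values of Adam15 and Adam17 was not tested.

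Of 14 substrates in the proteoglycan and perineuronal net list, 1, 4 and 4 rose and 9, 8 and 7 fell, with medians of -0.31, -0.28 and -0.16. Versican (Vcan), a main target of Adamts1, fell on day 1 (-0.70) and day 3 (-0.27) and rose on day 7 (0.56), and brevican (Bcan), a proteoglycan of the nets around neurons, fell on all 3 days (-0.37, -0.72 and -0.27). Decorin (Dcn), a fibroblast proteoglycan, fell on all 3 days (-0.82, -1.16 and -1.04). Hapln2, a link protein of the nodes of Ranvier, rose on day 3 (0.50) and day 7 (0.87). Of 12 collagen and basement membrane genes, 6, 7 and 5 rose and 3, 4 and 5 fell, with medians of 0.34, 0.24 and 0.02. Col4a1, a collagen of vessel basement membranes, rose by 2.82, 2.21 and 2.25 on the 3 days and the fibronectin gene Fn1 rose by 1.83, 1.99 and 1.84. The genes of this list did not move together. Nid1 had a level of -3.27 and -3.32 in normoxia and -4.41 and -4.25 on day 7. Lamb2 went from 0.1 and 0.17 in normoxia to -0.9 and -0.79 on day 7. Col4a2 was at -4.63 and -4.58 in normoxia, -3.18 and -3.12 on day 1, and -4.61 and -4.78 on day 7.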

How the data were processed

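Per the file headers, the deposited scanner output comes from Agilent Feature Extraction 11.5.1.1 and gives the processed signal intensity of each spot, background-subtracted and detrended, the mean intensity, the intensity of the local background, and flags for spots well above background. The authors' deposited value table is in log2 units; log2 processed signals less each array's 75th percentile came within 0.05 of 96.74% to 97.42% of its values, and the table was used as an alternative. Arrays have no read depth, and their number limits the precision.

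Control and outlier spots were left out, the log2 signals of repeated spots averaged, and arrays scaled to their 75th percentile over the 30367 probes. A probe was well above background on an array when a share of at least 0.5 of its spots was flagged so, and 24678 of 30346 complete probes were kept. A gene was its kept probe with the highest mean. All 8 arrays entered 1 limma model (limma 3.58.1, R 4.3.3) fitting 1 mean for each group, tested from both sides, with 4 residual degrees of freedom, a prior of 1.22 and a median residual SD of 0.0745. The procedure was tested on simulated data. Software was the R package data.table (version 1.17.8), Python 3.11.15 and pandas 2.3.3 and matplotlib 3.10.9.

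Array numbers pair no samples: deviations from group means correlated at -0.15 to 0.05 between same-numbered arrays. Gene names and coordinates are those of the array annotation on rn4; 45 of 46 member symbols are current in RefSeq, and Mmp1a is now Mmp1. Protein sequences were not used here. Members, lists and the naming rule were chosen with earlier results of these data known. Given in full were Timp1 to Timp4, Mmp2, Mmp9 and Mmp14, and per comparison with normoxia the 5 largest rises and 5 largest falls among called members whose arrays lay on 1 side of normoxia (3 each way between consecutive groups); other members were named in the account of their class. Of other lists, up to 4 genes with the smallest p in a comparison were named, and further genes where members of a list went different ways. Alternatives were quantile normalization, median centring, normexp (offset 50), the authors' values, both extremes of the filter on dim probes, an intensity trend in the prior, averaged probes per gene, fits of the 2 groups compared alone, a replicate block, a 2-fold threshold and each array left out; leaving out the day 1 arrays was added after seeing the data.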

Additional observations from a re-analysis of the deposited data

Results flagged for a closer look

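For the changes listed here, the gene was called on opposite sides of normoxia in 2 hypoxia groups. The difference between those 2 groups was itself called by limma. Of all genes tested, 35.5%, 50.3% and 61.3% were called against normoxia on the 3 days. How many of them meet this rule was not counted, so the list does not show that such turns are unusual. Of the genes listed, Mmp23 alone kept its calls against normoxia under every alternative run other than a 2-fold threshold. The Mmp14 calls on day 1 and day 3 were each lost without any 1 of the arrays compared. On day 7, median centring gave 0.06 for Mmp14, 0.13 for Timp4 and -0.05 for Timp1. The authors' values gave 0.22 for Mmp9 on day 7, and quantile normalization gave -0.12 for Timp2. From day 1 to day 3, Mmp14 moved by 0.32 ± 0.04 (from -0.16 to 0.16, adjusted p = 0.00211), Mmp23 by 1.14 ± 0.05 (from -0.63 to 0.51, adjusted p = 0.000108) and Mmp9 by 1.11 ± 0.07 (from -0.32 to 0.79, adjusted p = 0.000342). Timp4 went the other way, by -0.70 ± 0.03 (from 0.19 to -0.51, adjusted p = 0.000151). From day 3 to day 7, Mmp14 moved by -0.40 ± 0.04 (from 0.16 to -0.23), Mmp9 by -1.35 ± 0.07 (from 0.79 to -0.56) and Timp2 by 0.33 ± 0.04 (from -0.16 to 0.16). From day 1 to day 7, Mmp23 moved by 0.91 ± 0.05 (from -0.63 to 0.28, limma adjusted p = 7.28e-05), Timp1 by -0.81 ± 0.04 (from 0.47 to -0.35, adjusted p = 6.24e-05) and Timp4 by -0.36 ± 0.03 (from 0.19 to -0.16, adjusted p = 0.000403).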

How the results depend on the processing

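Counts of called members stayed within 1.5 times of those reported under the scaling, signal, filter, probe, prior and sample alternatives, with 2 exceptions. A 2-fold threshold left 5 members on day 1, 5 on day 3 and 8 on day 7 against normoxia, 6 from day 1 to day 3 and 3 from day 3 to day 7. Leaving out each array in turn gave 8 to 9 on day 1 against normoxia, 13 to 16 on day 3, 18 to 23 on day 7, 14 to 17 from day 1 to day 3 and 12 to 14 from day 3 to day 7. The replicate block gave 12, 17 and 22 against normoxia and 16 and 13 between consecutive groups. Without the day 1 arrays, added after seeing the data, the counts were 16 on day 3 and 21 on day 7. Calls that held under every alternative other than the 2-fold threshold numbered 6 of 13, 9 of 19 and 10 of 22 against normoxia, and 10 of 18 and 10 of 14 between consecutive groups; those of Adamts1, Adamts9 and Mmp16 against normoxia were among them.

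Some directions turned. With normexp, day 3 and day 7 values were 0.29 and 0.40 for Adamts12, 0.00 and 0.01 for Adamts4, 0.38 and 0.41 for Adamtsl3 and 0.44 and 0.44 for Adamtsl4, and on day 7 0.38 for Mmp9, 0.20 for Adamts18 and 0.40 for Mmp28. Timp1 on day 3 was 0.02 with normexp, 0.05 with quantile normalization and 0.12 with median centring. Quantile normalization gave 0.26 for Adamts18, 0.34 for Mmp28 and -0.12 for Timp2 on day 7 and 0.10 for Adamtsl4 on day 3. Median centring gave 0.24 for Adamts18, 0.29 for Mmp28, 0.06 for Mmp14 and 0.13 for Timp4 on day 7. The mean of a gene's probes gave -0.25 for Mmp17 on day 7 and -0.02 for Mmp2 from day 1 to day 3, and the authors' values gave 0.22 for Mmp9 on day 7. The cause was not tested. Among changes not called, leaving out 1 array gave -0.31 to 0.68 for Adamts18 and -0.01 to 0.09 for Adamtsl2 on day 3, -0.13 to 0.02 for Adamts18 and -0.28 to 0.27 for Mmp28 on day 7, and -0.06 to 0.01 for Timp1 on day 3. Signal over background limits what can be said of Adamts12, Adamtsl3 and Adamtsl4, well above background in normoxia only, and of Adamts4 and Mmp9, well above it on 1 of 2 day 7 arrays.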
